A study of Mus musculus with 4 samples.

Results

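The nuclear genes that encode the respiratory chain and ATP synthase were measured in mouse macrophages with and without Pparg, the gene of the lipid-activated nuclear receptor PPARγ. Members were chosen by symbol alone: subunits of complex I (Nduf), complex II (Sdh), complex III (Uqcr and Cyc1), cytochrome c (Cycs), complex IV (Cox) and complex V (Atp5). The rule found 86 probe sets of 67 genes among 10649 probe sets with values, of which 35 belonged to complex I, 4 to complex II, 8 to complex III, 1 to cytochrome c, 18 to complex IV and 20 to complex V. Another 10 probe sets were blank on all arrays, and Atp5e, Cox5a and Uqcr11 had such probe sets only and were not analysed here. A further 8 probe sets matched a member together with another gene and were set aside.

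The study compared peritoneal macrophages labelled PPARg WT with macrophages labelled PPARg KO, here called WT and KO, each with 2 arrays. Both groups came from mice of a mixed 129/SV and C57BL/6 background, were drawn into the peritoneal cavity by 2.5 ml of 3% thioglycollate, collected after 3 days, plated in 10% serum and washed after 5 h. They were then kept for 24 h in medium with 0.5% serum with no ligand named in the labels, and 10 µg of total RNA per sample was labelled. The labels give neither the age of the mice nor the allele or Cre behind the knockout, nor whether replicate arrays stand for different mice. The p-values therefore reflect only how far replicate arrays lie apart, taken over probe sets of like signal, and that spread may be technical. In a bulk sample, fewer cells of a type and less RNA per cell cannot be told apart.

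Complex I takes electrons from NADH and complex II from succinate, and both pass them to ubiquinone. Complex III hands them to cytochrome c, complex IV passes them on to oxygen, and complex V, the ATP synthase, makes ATP from the proton gradient that complexes I, III and IV build. Macrophages rely on this chain more in the state induced by interleukin-4, in which PPARγ and the coactivator PGC-1β are known to promote oxidative metabolism, and less after inflammatory activation.

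The single Pparg probe set with values read 61.1 and 73.1 in WT and 43.0 and 40.6 in KO, and the genotypes did not overlap (log2 difference -0.52, SE 0.11, with a limma adjusted p of 0.00012 when dim probe sets were kept). All 4 signals lay below the median of the antisense control probe sets of their array, and the labels do not say which part of the gene is deleted. Array medians ran from 136.7 to 142 intensity units. Of 18 probe sets for macrophage markers, 13 exceeded the highest antisense control on every array, among them the lysosomal glycoprotein gene Cd68 (6355 and 6414 in WT, 6210 and 6955.5 in KO). Their summed signal was 30588 to 31257 in WT and 29865 to 34037 in KO. Of the 15 tested, 7 had higher and 8 lower means in KO, and 1 passed (Mertk, lower in KO). Adgre1 (log2 difference -0.32) and Csf1r (-0.34 and -0.16) were among the lower ones that did not pass. Cd14 (0.19), Msr1 (0.16 and 0.01) and Lgals3 (0.15) were among the higher ones, none of which passed. The Mertk probe set and the Csf1r one at -0.34 did not exceed the highest antisense control on every array. The summed signal of 17 probe sets for fibroblast and mesothelial markers was 2865 to 2887 in WT and 3436 to 3783 in KO, with 1 of 7 tested passing (Dcn, higher in KO), and 8 below the antisense median on every array. That of 11 neutrophil probe sets was 1561.5 to 1620.4 in WT and 1332 to 1353 in KO, with 1 of 4 tested passing (S100a8, lower in KO), and 5 below that median. The part of these cells in the results below was not tested.

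No respiratory chain or ATP synthase gene passed the test in either direction. After a filter on dim probe sets, 67 member probe sets of 59 genes were tested, and 0 reached a limma adjusted p of 0.05, where 3.63% of all 6389 tested probe sets did (1.05% higher and 2.58% lower in KO). At an unadjusted p under 0.05 there were 2 members (Cox6a2 and Uqcrc2, both lower in KO), or 2.99%, against 9.53% of all tested probe sets. After quantile normalization this count was 7 of 67 members, and after cyclic loess normalization 6 of 67. The matching share of all tested probe sets was not computed under those 2 settings. All log2 differences given are KO minus WT, computed from log2(signal + 16). Their median was -0.01 for members and -0.02 for all tested probe sets. Members had higher means in KO at 30 probe sets and lower at 37, and their quartiles lay at -0.04 and 0.05, against -0.10 and 0.05 for all tested probe sets. Differences stayed within 0.2 at 63 of 67 members and at 85.8% of all tested probe sets. KO arrays lay wholly above or below WT arrays at 7 members, 3 higher and 4 lower, which is 10.4% against 32.5% of all tested probe sets.

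A p that misses the threshold does not show that a gene is equal in both genotypes, so the intervals matter more here. The 95% interval of the difference reached 0.30 to either side of it at the median member, and for all 67 tested members it lay within 1.5-fold (0.58 on the log2 scale), as it did for 94.3% of all tested probe sets. The lowest bound was -0.55 and the highest 0.51. These intervals borrow their spread from all probe sets of like signal. After quantile or cyclic loess normalization the interval reached 0.18 or 0.17 to either side at the median member. All 67 then lay within 1.5-fold, as did 96.2% of all tested probe sets. With each probe set's own spread and no moderation, 33 of 67 members and 54.9% of all tested probe sets stayed within 1.5-fold. Leaving out WT replicate 1 brought the moderated count to 23 of 67 members, against 67.8% of all tested probe sets. Leaving out WT replicate 2 brought it to 24 of 67, against 71.2%. In both of these fits only the KO arrays inform the spread.

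**Figure D1:**
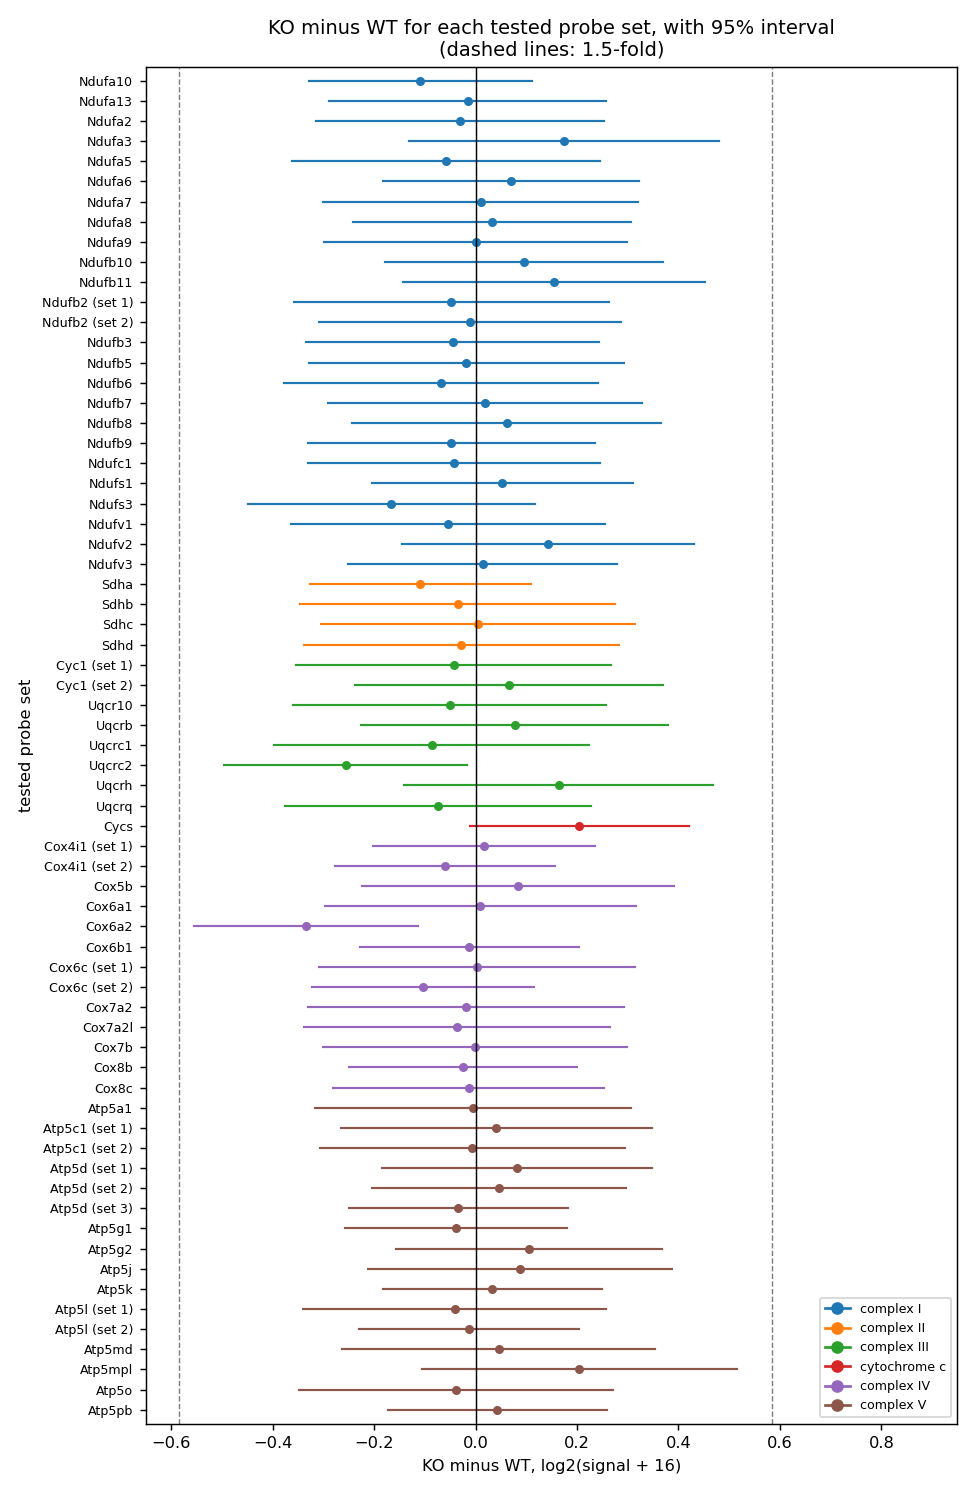
Log2 difference of KO minus WT (horizontal axis, on the log2(signal + 16) scale) for each of the 67 tested probe sets (vertical axis), coloured by complex. Points are estimates, bars are limma 95% intervals (n = 2 arrays per genotype) and dashed lines mark 1.5-fold; every bar stays between the dashed lines, and those of Cox6a2 and Uqcrc2 lie wholly below 0.

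The members are spread over 19 chromosomes and are known to share regulators, among them the nuclear respiratory factor NRF1, the ETS factor GABP and YY1. Promoter windows from 250 bases before to 50 bases after the start were found for 53 of the 67 genes in RefSeq (GRCm38.p6) and searched on both strands. The NRF1 letters, GCGCA and GCGC with 1 base of any kind between them, were present in 11 of 53 (20.8%), against 5.19% of all 27025 genes with a window and 12.0% of 4001 other genes tested on these arrays. For the ETS letters CCGGAAG the shares were 24.5% (13 of 53), 9.93% and 20.9%, and for the YY1 letters AAGATGGC 15.1% (8 of 53), 3.19% and 5.47%. The PPAR direct repeat, AGGTCA repeated with 1 base of any kind between the copies, was in 0 of 53 member windows and in 13 of the 27025 (0.048%). Windows of 3 members from different complexes are shown because between them they hold all 3 kinds of letters: Cox6a1 (complex IV, chr5:115348909-115349208, minus strand), Sdhd (complex II, chr9:50603800-50604099, minus strand) and Ndufa3 (complex I, chr7:3617123-3617422, plus strand). Capitals mark NRF1, ETS and YY1 matches on either strand.
Cox6a1: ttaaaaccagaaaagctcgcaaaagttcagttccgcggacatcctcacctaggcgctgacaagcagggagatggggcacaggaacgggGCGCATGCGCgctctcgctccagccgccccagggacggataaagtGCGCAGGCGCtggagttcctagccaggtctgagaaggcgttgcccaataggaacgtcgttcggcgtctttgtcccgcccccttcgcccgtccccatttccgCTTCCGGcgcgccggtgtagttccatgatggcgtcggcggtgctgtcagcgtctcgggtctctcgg
Sdhd: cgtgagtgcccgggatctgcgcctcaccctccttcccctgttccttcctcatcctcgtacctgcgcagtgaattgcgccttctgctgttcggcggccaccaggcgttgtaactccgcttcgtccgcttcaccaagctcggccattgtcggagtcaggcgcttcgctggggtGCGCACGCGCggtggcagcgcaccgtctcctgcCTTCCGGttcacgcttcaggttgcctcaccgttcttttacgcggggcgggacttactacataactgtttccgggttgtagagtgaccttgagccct
Ndufa3: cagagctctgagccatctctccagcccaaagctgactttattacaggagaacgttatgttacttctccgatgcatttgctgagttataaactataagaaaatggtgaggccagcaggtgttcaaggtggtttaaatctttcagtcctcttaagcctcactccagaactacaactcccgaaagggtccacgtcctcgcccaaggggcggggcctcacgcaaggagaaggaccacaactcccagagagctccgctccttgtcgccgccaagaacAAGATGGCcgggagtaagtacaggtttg
Cox6a1 held NRF1 letters at positions -162 and -117 from the start and ETS letters on the opposite strand at -16. Sdhd had NRF1 letters at -79 and ETS letters on the opposite strand at -46. In Ndufa3 the YY1 letters began at position 23, after the start. Tested genes whose window held any of the 3 motifs (25 genes) had a median log2 difference of 0.01, from -0.17 to 0.17, and those with a window and no match (20 genes) had -0.02, from -0.11 to 0.20. Neither group holds Cox6a2 (-0.33), Uqcrc2 (-0.26) or Atp5mpl (0.20), for which no window was found. A match is a description of letters and not a bound site.

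**Figure D2:**
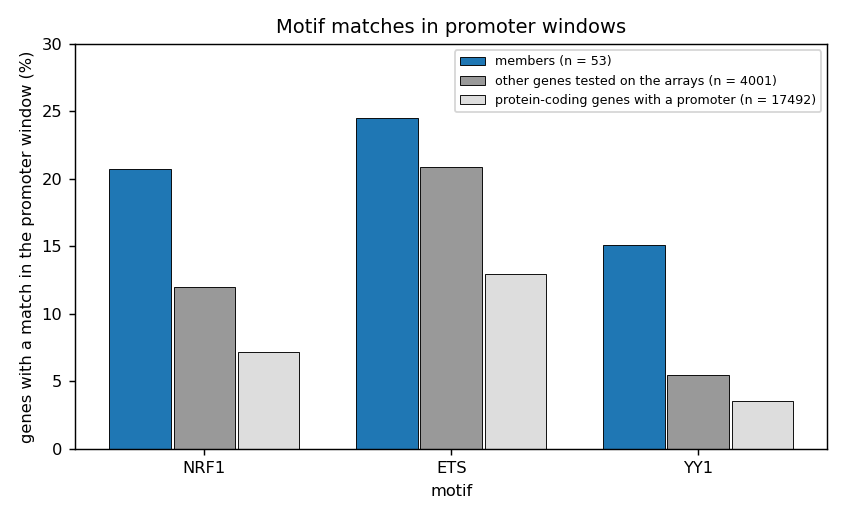
Share of genes (vertical axis, percent) with NRF1, ETS or YY1 letters (horizontal axis) in the promoter window, for members, for other genes tested on the arrays and for all protein-coding genes with a window. Members stand at 20.8%, 24.5% and 15.1%, and other tested genes at 12.0%, 20.9% and 5.47%.

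Complex I had the most members. Of 25 tested probe sets of 24 genes, 12 had higher and 13 lower means in KO, 0 passed (0 also at an unadjusted p under 0.05), and the median log2 difference was -0.01, with a range from -0.17 to 0.17. Ndufs3, a core subunit of the arm that carries electrons to ubiquinone, read 571 and 577 in WT (574 ± 4.53, SD, n = 2) and 471.5 and 551 in KO (511 ± 56.1). The KO arrays lay below both WT arrays, with KO replicate 1 the lower (log2 difference -0.17, SE 0.14, limma adjusted p = 0.98). Ndufa10, an accessory subunit, was the other complex I member whose arrays did not overlap, at 205 and 199 in WT and 198 and 175 in KO (adjusted p = 0.9997).

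The highest complex I estimates were for accessory subunits. Ndufa3 read 862 and 1037 in WT and 928 and 1232 in KO, with overlapping arrays (log2 difference 0.17, SE 0.16, adjusted p = 0.998). Its second probe set was dim, at 92.3 and 88.9 in WT and 108 and 97.5 in KO, below the antisense median of every array, and gave 0.15 in the fit without a filter. Ndufb11 read 661 and 743 in WT and 725 and 844 in KO (0.15). The flavoprotein subunits form the NADH site. Ndufv1 read 1254 and 1392 in WT and 1195 and 1354 in KO (-0.05), and Ndufv2 read 601 and 536 in WT and 599 and 659 in KO (0.14). Ndufs1, the largest iron-sulfur subunit, stood at 364 and 333 in WT and 335 and 391 in KO (0.05). Ndufa9 had the estimate nearest to 0 of all members, at 776 and 744 in WT and 704 and 819.8 in KO (0.00, 95% interval -0.30 to 0.30).

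The remaining tested complex I genes were accessory subunits, and each had overlapping arrays. Ndufa7 and Ndufb5 were the brightest of them by their single probe sets, with signals from 1827 to 2225 and from 1593 to 1828. Ndufa2, Ndufa5, Ndufa6, Ndufa8, Ndufa13, Ndufb3, Ndufb6, Ndufb7, Ndufb8, Ndufb9, Ndufb10, Ndufc1 and Ndufv3 had log2 differences between -0.07 (Ndufb6) and 0.10 (Ndufb10). Ndufb2 was read by 2 tested probe sets, at -0.05 and -0.01. Ndufa1, Ndufa12, Ndufc2 and Ndufs4 had only probe sets below the antisense median on every array and were not tested.

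Complex II is also the succinate dehydrogenase of the citrate cycle. Its 4 genes had a median log2 difference of -0.03, with 0 past the threshold (0 also at an unadjusted p under 0.05). Sdhb, the iron-sulfur subunit, read 1471 and 1690 in WT and 1406 and 1682 in KO (-0.04). The membrane anchors Sdhc and Sdhd read 1198 and 1196 in WT and 1133 and 1272 in KO (0.00), and 1316 and 1294 in WT and 1187 and 1380 in KO (-0.03). For all 3 of these genes KO replicate 1 gave the lowest signal of the 4 arrays. The probe set of the flavoprotein gene Sdha was dim, at 136 and 106 in WT and 97.0 and 125 in KO (-0.11, SE 0.11), and did not exceed the highest antisense control on any array.

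Complex III held the second largest difference of the tested members. Over its 8 probe sets of 7 genes the median log2 difference was -0.05, and 0 passed, with 1 at an unadjusted p under 0.05. Uqcrc2, a core subunit, read 297 and 320.3 in WT (309 ± 16.5) and 245.5 and 266 in KO (256 ± 14.6). Both KO arrays lay below both WT arrays (log2 difference -0.26, SE 0.12, limma adjusted p = 0.43). Its partner core subunit Uqcrc1 overlapped, at 1299.5 and 1420.3 in WT and 1145.5 and 1428 in KO (-0.09, SE 0.16). Uqcrh, the hinge subunit that contacts cytochrome c1, had an estimate of the opposite sign, at 887 and 908 in WT and 925 and 1098 in KO, without overlap (0.16, SE 0.16, adjusted p = 0.9997). Cyc1, which encodes cytochrome c1, had 2 tested probe sets that read -0.04 and 0.07, and the small subunits Uqcrb, Uqcrq and Uqcr10 read 0.08, -0.07 and -0.05.

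Cycs, the gene of cytochrome c, and Atp5mpl of complex V shared the highest estimate among members, 0.20, and Atp5mpl was the higher after quantile normalization (0.28 against 0.24) and with a pseudocount of 64 (0.20 against 0.16). Cytochrome c, a mobile carrier, links complexes III and IV and also triggers caspases when it leaves mitochondria. Cycs read 154 and 152 in WT (153 ± 0.919) and 174 and 184 in KO (179 ± 6.86). Both KO arrays lay above both WT arrays, and the difference did not pass (0.20, SE 0.11, 95% interval -0.01 to 0.42, limma adjusted p = 0.60). The signal exceeded the highest antisense control (143.7 to 156.7) on every array except WT replicate 2.

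Complex IV, cytochrome c oxidase, had the lowest single estimate. Its 13 tested probe sets of 11 genes had a median log2 difference of -0.01, with 4 higher and 9 lower means, and 0 passed, with 1 at an unadjusted p under 0.05. That one was Cox6a2, the heart and skeletal muscle form of subunit VIa. It read 225 and 224 in WT (225 ± 0.636) and 182 and 168 in KO (175 ± 9.62), above the highest antisense control on every array, and the genotypes did not overlap. The difference was -0.33 (SE 0.11, 95% interval -0.55 to -0.11) with a limma adjusted p of 0.074. It passed when KO replicate 1 was left out (adjusted p = 0.031), where 1.97% of all probe sets were called lower, and with the mean of each gene's probe sets as the unit (adjusted p = 0.042), where 2.86% were. Cox6a2 has 1 probe set, so the mean per gene left its difference at -0.33. Only the borrowed spread and the number tested (5001 genes) changed. A threshold of 0.1 also called Cox6a2, with 3.19% of all probe sets called lower. Over the other alternatives with no block its adjusted p ran from 0.056 to 0.9999, the last when WT replicate 2 was left out.

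Cox6a1, the form found in most tissues, read 2612 and 2559 in WT and 2391 and 2833 in KO, with the KO arrays on either side of WT (0.01, SE 0.16, adjusted p = 0.9997). The difference between these isoforms was not tested. Of the other tissue-restricted forms, the muscle gene Cox7a1 (53.2 and 54.8 in WT, 52.0 and 44.0 in KO) and the testis gene Cox6b2 (99.1 and 84.1 in WT, 110.2 and 89.4 in KO) lay below the antisense median on every array. Cox8b, another muscle form, was read at 219 and 225 in WT and 223 and 213 in KO by 1 probe set (-0.02) and below 32 on every array by its other. The testis gene Cox8c gave 433.5 and 405 in WT and 457 and 377 in KO by 1 probe set (-0.01) and under 40 on every array by its other. Which probe set of such a pair reports the gene was not tested.

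The common subunits of complex IV overlapped between genotypes. Cox5b, which helps hold the zinc of the matrix side, read 1003.5 and 1063 in WT and 1025 and 1170 in KO (0.08, SE 0.16). Cox7b read 841 and 741 in WT and 729 and 853 in KO, with the WT arrays between the KO arrays, and Cox7a2l, which joins complexes III and IV into supercomplexes, read 823 and 921 in WT and 769.7 and 935 in KO (-0.04). Cox7a2 and Cox6b1 stood at -0.02 and -0.01. Cox4i1 had 2 tested probe sets, at 0.02 and -0.06, and Cox6c had 2, at 0.00 and -0.10. The single probe set of Cox8a was below 46 on every array and was not tested.

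Complex V makes the ATP. Its 16 tested probe sets of 12 genes had a median log2 difference of 0.04, with 9 higher and 7 lower means, and 0 passed (0 also at an unadjusted p under 0.05). This median was 0.0063 with no filter and -0.04 without KO replicate 2. The medians of complexes I to IV lay below 0, but those of I and IV lay above 0 after quantile, cyclic loess or median normalization, that of II after quantile normalization, and all 4 without KO replicate 1. Atp5mpl, a small membrane-sector subunit, read 1190 and 1250 in WT (1220 ± 42.4) and 1236 and 1602 in KO (1419 ± 259). The high value came from KO replicate 2 alone, and KO replicate 1 lay between the WT arrays (0.20, SE 0.16, adjusted p = 0.93). After quantile normalization Atp5mpl was called higher (0.28, adjusted p = 0.024), where 2.69% of all tested probe sets were called higher.

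Atp5a1, which encodes the α subunit, a part of the head of the synthase, read 1540.5 and 1522 in WT and 1447.5 and 1608 in KO (-0.01, 95% interval -0.32 to 0.31). Atp5c1, the γ subunit of the rotor shaft, had 2 tested probe sets, at 0.04 and -0.01. Atp5d, the δ subunit, had 3, at 0.08, 0.05 and -0.03, and the brightest of them was the remaining member with higher, non-overlapping KO arrays (405 and 384 in WT, 424 and 412 in KO). The peripheral stalk genes Atp5o, Atp5pb and Atp5j read -0.04, 0.04 and 0.09. The c-ring genes Atp5g1 and Atp5g2 encode the same mature proton-carrying subunit with different import sequences. Their brighter probe sets read 207 and 175 in WT and 195.5 and 175 in KO (-0.04), and 350.1 and 390.2 in WT and 365 and 436 in KO (0.10). The membrane-sector genes Atp5l (2 tested probe sets, -0.04 and -0.01), Atp5md (0.05) and Atp5k (0.03) overlapped as well, and Atp5j2 lay below 51 on every array.

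**Figure D3:**
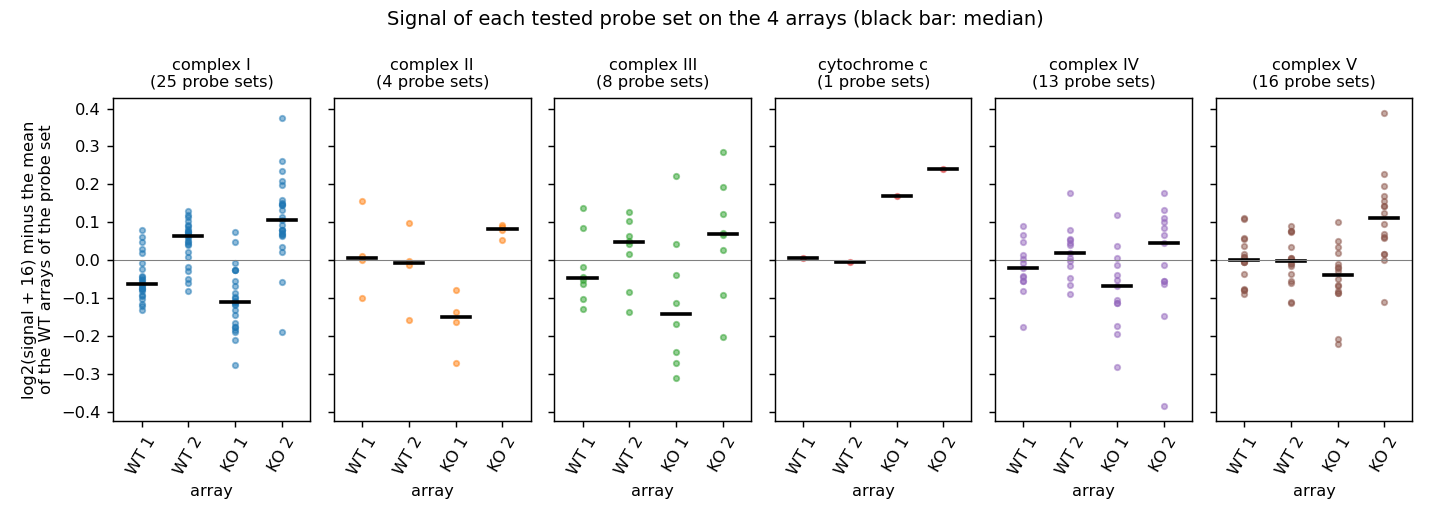
Signal of each tested member probe set on each array (horizontal axis), as log2(signal + 16) minus the mean of its WT arrays (vertical axis), in a panel for each complex; points are probe sets and black bars medians. In complexes I to V the median is lowest on KO replicate 1 and highest on KO replicate 2, with the WT arrays between them.

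The members varied more between the KO arrays than between genotypes. KO replicate 2 read above KO replicate 1 at 58 of 67 members (86.6%), by a median of 0.21, against 71.0% and 0.11 for all tested probe sets. WT replicate 2 read above WT replicate 1 at 43 members (64.2%), by a median of 0.08, against 53.0% and 0.01 for all tested probe sets. Medians relative to WT were -0.11 on KO replicate 1 and 0.11 on KO replicate 2 for complex I, -0.15 and 0.08 for complex II, -0.14 and 0.07 for complex III, -0.07 and 0.05 for complex IV and -0.04 and 0.11 for complex V.

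Brightness moved with that pattern. Members were bright, with a median signal of 762 against 240.3 for all tested probe sets, and 41 of 67 lay in the 2 brightest of 10 signal bins. Over all tested probe sets split into 10 equal bins of signal, the median of KO replicate 2 minus KO replicate 1 was 0.21 in the brightest bin and -0.01 in the dimmest. The 25 members in the brightest bin had 0.24. After cyclic loess normalization, which levels shifts that follow brightness, the KO pair differed by a median of 0.03 at members, and 0 members were called, where 6.28% of all probe sets were. In those 2 brightest bins, KO and WT arrays did not overlap at 4.88% of members and 34.0% of all tested probe sets.

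**Figure D4:**
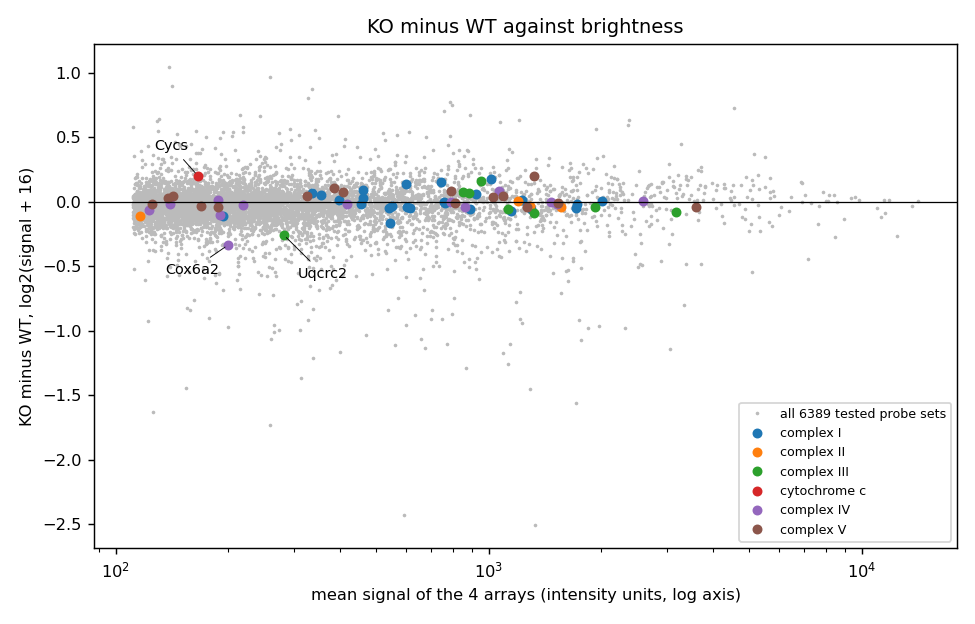
Log2 difference of KO minus WT (vertical axis) against the mean signal of the 4 arrays (horizontal axis, log scale) for all 6389 tested probe sets (grey) and for members coloured by complex. Members lie between -0.33 (Cox6a2) and 0.20 (Cycs), and most of them to the right of the median signal of 240.3.

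Genes with several probe sets gave a check within the gene. Of 15 such genes, 7 had 2 or more tested probe sets, and their estimates differed by 0.03 to 0.12, with a median of 0.08. The signs were opposite in 5 of the 7, whose estimates ran from -0.10 to 0.08, and the cause was not tested. Of the 86 probe sets, 19 carry the platform's suffix f and 8 the suffix r, which mark probes shared within a sequence family or chosen by relaxed rules. Such probe sets may also read the processed pseudogenes that many of these genes have. The median difference was -0.01 over 44 tested probe sets without a suffix, 0.01 over 14 with f and -0.03 over 6 with r.

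No gene of other mitochondrial lists passed either. From 7 lists, 136 probe sets of 122 genes outside the members were tested. By limma 0 of these passed, where 3.63% of all tested probe sets did. The unadjusted p fell under 0.05 for 4 of the 136, and for 9.53% of all tested probe sets. Their median log2 difference was -0.03, beside -0.02 for all tested probe sets. The medians were -0.02 for assembly factors (17 probe sets), -0.03 for the citrate cycle (16), -0.04 for coenzyme Q synthesis (7), 0.02 for carriers and channels (11), -0.06 for protein import and proteases (22) and -0.01 for mitochondrial ribosomal proteins (55). Regulators of mitochondrial biogenesis had the lowest median, -0.11 over 8 probe sets of 6 genes (Yy1, Polrmt, Gabpb1, Nfe2l2, Polg and Esrra). Only 3 of the 8 exceeded the highest antisense control on every array. Of the 20 probe sets of this list with values, 10 lay below the antisense median. The genes of NRF1 and PGC-1β had no tested probe set. Yy1, the gene of the factor whose letters were searched in the promoters, had the smallest p of the 6 genes. It read 150.5 and 156 in WT and 121 and 119 in KO (-0.32, SE 0.11, adjusted p = 0.094). A second Yy1 probe set read -0.20 (adjusted p = 0.64). Both had KO arrays below both WT arrays, and neither was above the highest antisense control on every array.

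The gene with the smallest p in each of the other lists did not pass either. Coq7, which hydroxylates a precursor of ubiquinone, read 235 and 262 in WT and 178 and 235 in KO (-0.26, adjusted p = 0.35). Suclg2, a subunit of the GTP-forming succinate-CoA ligase, read 158 and 139 in WT and 178 and 181 in KO (0.25, adjusted p = 0.30). Uqcc3, an assembly factor of complex III, read -0.23 (adjusted p = 0.43). Slc25a4, which exchanges ADP for ATP across the inner membrane, read 472 and 467 in WT and 518 and 598 in KO (0.24, adjusted p = 0.74). The dimmer Mrpl45 probe set, for a mitochondrial ribosomal protein, read -0.22 (adjusted p = 0.61), and the brighter one read 320.4 and 323 in WT and 301.2 and 341 in KO (-0.01). The import receptor gene Tomm70a read -0.15 (adjusted p = 0.91).

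**Figure D5:**
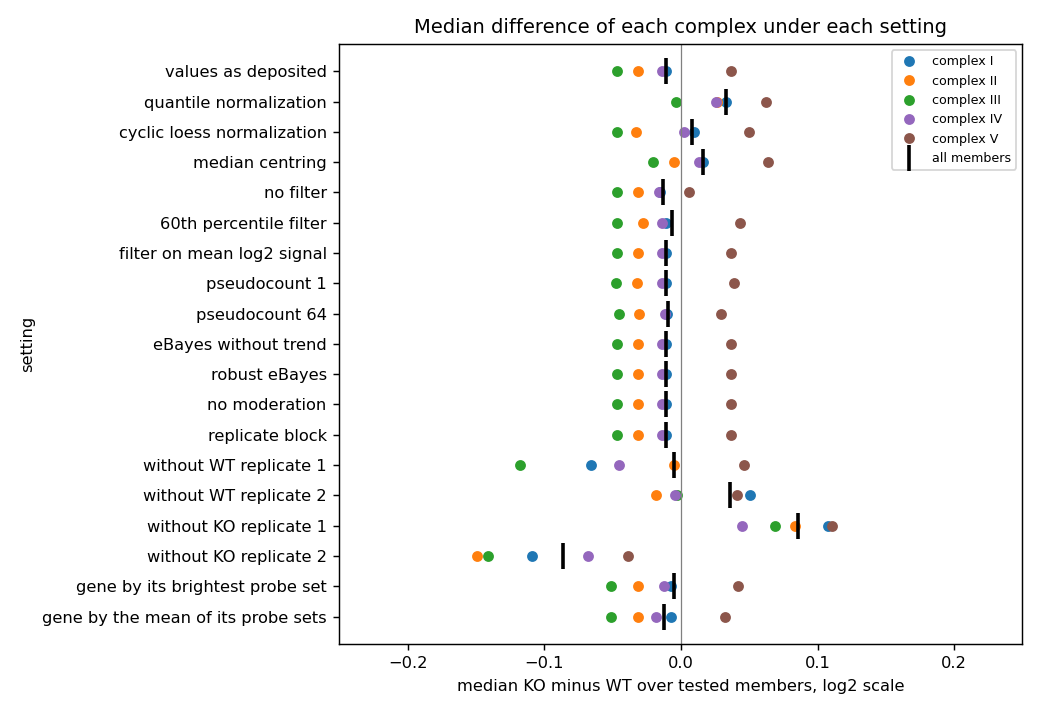
Median log2 difference of KO minus WT over the tested members of each complex (coloured points) and over all members (black ticks) on the horizontal axis, under each setting (vertical axis). The member median lies between -0.09 and 0.09 throughout, and the settings that leave out a KO array lie farthest from 0, in opposite directions.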

How the data were processed

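RNA of cultured macrophages was measured on 1-colour Affymetrix arrays, 2 of WT and 2 of KO cells. The deposited table holds a linear intensity for each probe set and array; the authors' probe summary, background step and array scaling are not given in the sources used here. The table has 12488 entries, of which 1780 were blank on all arrays and 59 were controls, which left 10649 probe sets. Array medians on the log2(signal + 16) scale ran from 7.26 to 7.30, so no further normalization was applied. The test covered 6389 probe sets, whose mean signal exceeded the 40th percentile (111.4). Genotypes were compared with limma 3.58.1 in R 4.3.3, using eBayes with a trend on signal, two-sided tests and Benjamini-Hochberg adjustment over all 6389. The prior degrees of freedom were infinite (12778 degrees of freedom in total), so standard errors and intervals rest on probe sets of like signal, and they are too narrow for a probe set that varies more. The code was tested on simulated data.

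The filter had at one stage been run on the mean log2 signal, after the mean signal had been tried; the mean signal of the written design was then restored, with both outcomes known, and the other form is kept as an alternative.

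Genes came from the platform annotation (9389 probe sets with 1 gene, 341 with several, 919 with none), and all 67 member genes matched RefSeq's GRCm38.p6 table by gene identifier. The members and gene lists were chosen with earlier results of these data known. Named members follow a rule: in each complex the 3 genes with the smallest p and the 1 with p nearest to 1, genes with several probe sets, tissue-restricted isoforms, cytochrome c, the complex II genes and the c-ring genes; the others are named to account for every tested or dim gene. From each other mitochondrial list the gene with the smallest p is named, since 0 passed. The promoters printed, the genes near Cox6a2, the cell type markers named and the splits by signal were chosen after values were seen.

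Alternatives were quantile, cyclic loess and median normalization; a lower or higher filter (none, 60th percentile) and the log2 filter; a pseudocount of 1 or 64; eBayes with no trend, robust, or no moderation; other call rules (adjusted p of 0.1, 1.5-fold); a replicate block; each array left out; and 1 value per gene. Plots used matplotlib 3.10.9 (Python 3.11.15).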

Additional observations from a re-analysis of the deposited data

How the results depend on the processing

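No member was called with the values as deposited. The number called was 1 after quantile normalization (Atp5mpl, higher), 1 at an adjusted p of 0.1 (Cox6a2, lower) and 1 with the mean of each gene's probe sets (Cox6a2, lower), and 0 under the other normalizations, filters and pseudocounts, eBayes without trend or robust, and the 1.5-fold rule. The fit with no moderation called 0 of all 6389 probe sets, so its 0 members say nothing of stability. A filter on the mean log2 signal, an alternative chosen after seeing the data, called 0 members and 227 of all tested probe sets, against 232 with the filter used. With each array left out in turn, 0 members were called higher and 0 to 1 lower, the latter being Cox6a2 without KO replicate 1. The member median then ran from -0.086 to 0.085, and from -0.11 to 0.11 for complex I, -0.149 to 0.083 for complex II, -0.14 to 0.069 for complex III, -0.068 to 0.045 for complex IV, -0.039 to 0.11 for complex V and 0.17 to 0.24 for cytochrome c. The lowest medians of complexes I to V came without KO replicate 2 and the highest without KO replicate 1. With a pseudocount of 64 cytochrome c read 0.16, and the 60th percentile filter removed it. Among other mitochondrial genes, 1 was lower without a filter (2.27% of all probe sets), 1 at an adjusted p of 0.1 (Yy1, 3.19%), and 0 to 2 with an array left out (Coq7 and the dimmer Mrpl45 probe set without KO replicate 2, where 4.49% were lower, against 2.58% with all arrays). The first was a dim probe set of Sucla2 (-0.37), whose tested probe set read -0.01. Of 715 values of 40 named probe sets under 18 settings, 711 kept their side of the threshold, 40 of them in the fit with no moderation, and 4 newly passed. The sign changed in 73, none of them called. The cause of these changes was not tested.

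WT and KO share replicate numbers, which the labels tie to no litter or day. Deviations of same-numbered arrays correlated at 0.42 over all tested probe sets, from only 2 pairs. With the replicate number as a block, calls over all probe sets numbered 486 in place of 232, 1 member was called lower (Cox6a2, limma adjusted p = 0.0049) and 1 gene of the other lists was (Yy1, adjusted p = 0.011).

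Precision is limited by 2 arrays per genotype. Separately, 19 of 86 member probe sets had signals below the antisense median and were not tested. Among tested members the standard error was smallest at the dim Atp5pb (0.11) and largest at the bright Sdhb (0.16). Of the 67 tested, 60 exceeded the highest antisense control on every array. Besides Sdha and Cycs, those that did not were Cox6b1, Atp5k, Atp5pb and the dimmer tested probe sets of Cox4i1 and Atp5l.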

Other observations

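Cox6a2 lies on chromosome 7, with the integrin genes Itgax and Itgam, which macrophages use for adhesion and complement receptors, among the annotated genes near it and not adjacent to it. Among genes within 10 annotated positions on either side, Itgax read 971 and 986 in WT and 835 and 979.6 in KO (log2 difference -0.11, limma adjusted p = 0.98 in the fit without a filter). Itgam read -0.03 and Tgfb1i1 0.01, beside -0.33 for Cox6a2, and the difference between these genes was not tested. Rgs10, at the far end of the window, had 3 probe sets that read 0.07, 0.35 and 0.07, none past the threshold.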
